A study of Mus musculus with 16 samples.

Results

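Lungs of untreated Cox4-2 mutant mice were compared with lungs of untreated wild-type mice, across all genes on the array. The comparison used the 8 arrays whose labels give no treatment, 4 from the Cox4-2 mutant line and 4 from wild type, out of 16 arrays in the series. All mice were C57BL/6N females of 17 weeks, and each array held RNA from a portion of 1 mouse's lung. Expression was read on Illumina BeadChips for mouse, which measure 1 sample per array through probes attached to beads, and values below are linear intensities unless a log2 difference (mutant minus wild type) is named. The other 8 arrays, again 4 of the mutant line and 4 of wild type, came from mice given ovalbumin with alum by injection and then ovalbumin aerosol, a model of allergic airway inflammation. They are used here to estimate the spread and to ask whether a genotype difference was also seen in challenged lungs. The labels describe the mutation only as a knockout or mutant line of Cox4-2, with no account of the allele, of how many founder lines were used or of whether wild-type mice were littermates. They also do not say whether the untreated mice were sensitised or received a sham exposure.

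Cox4-2, the product of the gene Cox4i2, is an alternative form of subunit IV in cytochrome c oxidase, the terminal enzyme complex of the mitochondrial respiratory chain. Most cells use the isoform encoded by Cox4i1, while Cox4i2 is expressed mainly in lung, in pericytes and in vascular smooth muscle, and is known for a role in oxygen sensing by pulmonary artery muscle. A lung sample holds epithelium, vessels, connective tissue and immune cells together, so for every gene below fewer cells of a type and less RNA per cell cannot be told apart.

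All 8 arrays carried a lung pattern, with Scgb1a1 of club cells at mean intensities of 41837 in wild type and 44407 in mutants and Sftpc of alveolar type 2 cells at 24061 and 21621. Rank correlations over the tested genes were 0.972 to 0.986 within a group and 0.970 to 0.984 between the groups, so the genotypes were not clearly separated. Along the first principal component of the 8 arrays, which held 32.5% of the variance, wild-type array 3 (11.9) lay among the mutants (1.34 to 16.1) and the other wild-type arrays lay between -22.4 and -7.13. Wild-type array 3 had a mean rank correlation of 0.975 with the other wild-type arrays and 0.980 with the mutants. Nothing in the labels sets it apart, and it is kept in every value below unless stated.

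No single gene passed the threshold in untreated lungs. Of 11962 tested genes and unnamed probes, 0 (0%) had an adjusted p under 0.05 in limma with Benjamini-Hochberg adjustment, and the smallest adjusted p was 0.0791. At an unadjusted p under 0.05 there were 1454 genes (12.2%), of which 646 were higher (5.4%) and 808 lower (6.75%) in mutants. The 4 mutant arrays did not overlap the 4 wild-type arrays in 847 genes (7.08%), 356 higher (2.98%) and 491 lower (4.1%). Differences were small, with a median log2 difference of 0.00 over all genes, a median SE of 0.12 and an interquartile range of -0.12 to 0.11, and 14 genes exceeded 1 log2 unit, 9 higher and 5 lower. In simulated data with the spread of these arrays, the same test recovered 65.7% of 67 genes changed 1.5-fold and 97% of 67 genes changed 2-fold in this comparison, and 13 of its 188 calls were false. The simulated noise was independent between genes, without differences between whole arrays such as that of wild-type array 3. These shares therefore do not tell how many real changes of that size would pass here. Wild-type array 3 bears on the count, since 36 genes passed without it, among them Retnla, Zfp207 and Ctns, which are described below. That array was singled out for lying among the mutants, so a higher count without it was to be expected. These 36 calls are therefore a description and no support. Because no gene passed with all arrays, the genes below are called higher or lower as values, with their p, and none is called changed.

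Cox4i2 itself was lower in every untreated mutant lung. Its only probe, ILMN_2612178, read 247, 252, 260 and 372 in wild type and 102, 77.5, 181 and 189 in mutants. The groups did not overlap, and the mutant signal was well above the background limit of 16.8 on all 4 arrays. The log2 difference was -0.90 (SE 0.24), with a limma adjusted p of 0.19 and an exact permutation p of 0.0286 over 4 against 4 arrays, the smallest that this design can give. No label places the probe relative to the altered part of the gene, so the remaining signal does not tell whether a full transcript was made.

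Genes near Cox4i2 on chromosome 2 were not shifted as a group, but a few of them differed in the same direction as Cox4i2. Cox4i2 lies at chr2:152753916-152765039 (GRCm38.p6), and 99 tested genes, Cox4i2 included, start within 5 Mb of it. Of these, 9 were lower, Cox4i2 among them, and 2 higher at an unadjusted p under 0.05. Over all genes 6.75% were lower and 5.4% higher at that level. None of the 99 passed adjustment, and their median log2 difference was -0.0023. Across chromosomes the share of genes under that unadjusted level ran from 9.05% on chromosome 7 to 15.6% on chromosome 12, and chromosome 2 stood at 14.2%.

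Zcchc3, a zinc-finger protein known as a cofactor of nucleic acid sensing in innate immunity, starts 0.342 Mb from Cox4i2. It read 359, 299, 219 and 334 in wild type and 58.2, 70.3, 173 and 218 in mutants. All mutant arrays lay below all wild-type arrays, although mutant array 4 and wild-type array 3 were nearly equal. The log2 difference was -1.11 (SE 0.31, limma adjusted p = 0.203), and the gene's other 2 detected probes gave -0.42 and -1.04.

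An unnamed probe, ILMN_1228010, showed a similar picture. The authors' second table names it Rem1, a small GTPase of the RGK family, whose gene lies at chr2:152627008-152635191 and starts 0.127 Mb from Cox4i2. It read 69.9, 59.7, 83.7 and 73.1 in wild type and 23.2, 27.4, 26.6 and 47.8 in mutants. The groups were apart, and the log2 difference was -0.65 (SE 0.17, limma adjusted p = 0.195). Ninl, a ninein-like protein of the centrosome, lies 1.82 Mb away and gave a log2 difference of -0.67 (adjusted p = 0.158), with 1 of the 4 mutant arrays above the background limit. Nsfl1c, the p47 cofactor of the p97 ATPase, lies 1.26 Mb away and gave -0.34 (adjusted p = 0.203).

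**Figure D1:**
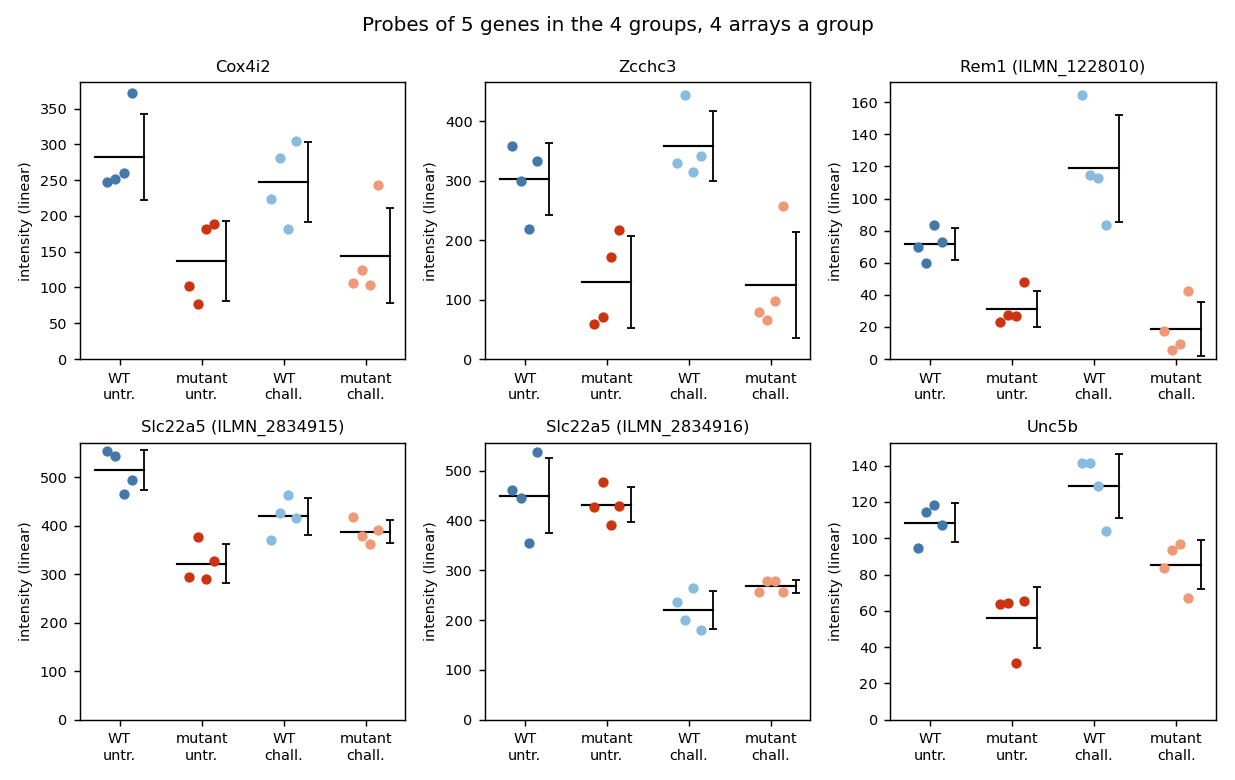
Linear intensity of 6 probes in the 4 groups, 1 point per array, with the group mean (line) and SD (bar), n = 4 per group. Cox4i2, Zcchc3, the Rem1 probe and Unc5b lie lower in mutants under both treatments, while Slc22a5 is lower in untreated mutants by 1 of the 2 probes drawn (ILMN_2834915) and overlaps by the other (ILMN_2834916).

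The gene with the smallest p was Slc22a5, which encodes the carnitine transporter OCTN2 that brings carnitine into cells for the mitochondrial oxidation of long-chain fatty acids. Its probe ILMN_2834915 read 555, 545, 467 and 495 in wild type and 295, 377, 290 and 328 in mutants. The highest mutant was well below the lowest wild type. The log2 difference was -0.62 (SE 0.10, limma adjusted p = 0.0791, exact permutation p = 0.0286). That permutation p is the smallest possible here, and any gene whose groups do not overlap reaches it (847 genes, 7.08%). For a gene with the smallest p of all it is therefore no further support.

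The gene's other probes did not share this difference. ILMN_2834916, of similar brightness, read 461, 445, 354 and 537 in wild type and 428, 478, 392 and 430 in mutants, and the groups overlapped fully. Its log2 difference was -0.04 (SE 0.12). The dim probe ILMN_2651273 gave -0.03. The difference in Slc22a5 therefore rests on 1 of 3 detected probes, and whether the probes read different transcripts was not tested.

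Unc5b, a netrin receptor of blood vessel endothelium with a role in vessel branching, read 94.5, 115, 118 and 107 in wild type. In mutants it read 63.8, 64.5, 31.4 and 65.6. No arrays overlapped, and mutant array 3 stood below the other mutants. The log2 difference was -0.64 (SE 0.13, limma adjusted p = 0.13), and only this probe of the gene was detected.

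Among the other genes with the smallest p in the lower direction were several of membrane traffic and signalling. Mvb12b, a subunit of the ESCRT-I complex that sorts cargo into multivesicular bodies, read 169, 170, 145 and 151 in wild type and 88.2, 118, 81.7 and 84.6 in mutants. Arf6, a small GTPase of plasma membrane traffic, read 656, 521, 561 and 515 against 347, 389, 355 and 414. Both had groups that did not overlap, with log2 differences of -0.58 (adjusted p = 0.0905) and -0.53 (adjusted p = 0.0991). Rapgef1, an exchange factor for the small GTPase Rap1, was lower by the probe with the highest mean (log2 difference -0.63, adjusted p = 0.0991), but its 2 other detected probes gave -0.0026 and 0.19. Blk, a B cell kinase of the Src family, read 119, 147, 59.6 and 76.0 in wild type and 37.3, 29.8, 32.4 and 24.9 in mutants (log2 difference -0.93, adjusted p = 0.143), and its second probe gave -0.50 (unadjusted p = 0.0145). Of 9 tested B cell genes Blk was the only one with an unadjusted p under 0.05, 7 were negative, and the list's median was -0.14. The B cell chemokine receptor gene Cxcr5 also had groups that did not overlap, at 32.6 to 45.9 in wild type and 20.4 to 26.1 in mutants (-0.30, adjusted p = 0.641), and its 2 further detected probes gave -0.28 and 0.11.

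Several lower genes belong to metabolism and RNA handling. The unnamed probe ILMN_2712066, which the authors' second table assigns to Pgd, 6-phosphogluconate dehydrogenase of the pentose phosphate pathway, read 1387, 1380, 1264 and 1361 in wild type and 1044, 980, 977 and 953 in mutants. The replicates of this probe were close together and the groups far apart relative to them (log2 difference -0.43, SE 0.09, adjusted p = 0.13). Noxa1, an activator of the NADPH oxidase Nox1, read 30.0 to 42.9 in wild type and was not above background on any mutant array, so it was at least 1.33-fold lower (limma adjusted p = 0.13). U2af1l4, a splicing factor (-0.54), Trmu, a modifier of mitochondrial tRNA (-0.43), the deubiquitinase Bap1 (-0.44) and the unstudied transcript 4930402H24Rik (-0.70) had adjusted p of 0.13 to 0.144. The second probe of Trmu gave 0.11.

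In the higher direction, the leading genes by p were Zfp207, a zinc-finger protein of the mitotic spindle, and Ctdspl2, a phosphatase. Zfp207 read 214, 212, 245 and 183 in wild type and 301, 320, 402 and 384 in mutants. Its groups did not overlap, and the log2 difference was 0.62 (SE 0.11, limma adjusted p = 0.0991). Ctdspl2 gave 0.52 (adjusted p = 0.0991), but its second probe gave -0.24. Hspa1a, an inducible heat shock protein of the HSP70 family, read 131, 101, 125 and 135 in wild type and 185, 273, 327 and 194 in mutants, again without overlap (log2 difference 0.77, adjusted p = 0.144). Hspa1b is nearly identical in sequence, so the Hspa1a signal may come from either gene. The co-chaperone Dnajb1 was also higher (0.56, adjusted p = 0.194), while 2 other genes among the 11 tested heat shock genes were lower at an unadjusted p under 0.05, the small heat shock protein Cryab (-0.51) and the co-chaperone Bag3 (-0.30).

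The remaining leading genes in the higher direction had adjusted p of 0.13 to 0.158. They were Gm5643 (log2 difference 0.71), the cholesterol synthesis enzyme Nsdhl (0.69), the zinc-finger gene Zfp623 (0.36), the F-box gene Fbxo8 (0.51), the lysosomal cystine transporter Ctns (0.58), the spindle checkpoint gene Mad2l1 (0.46), the cytokine signalling regulator Socs4 (0.44), and Retnla and Scin, described below. Nsdhl had 3 further detected probes, at 0.58, 0.38 and -0.02. Over all 24 leading genes, 12 in each direction, 7 had further detected probes, and 7 of these 11 probes had the sign of the leading one, 2 of them at an unadjusted p under 0.05. These 24 genes were chosen by their p in this contrast, so that the groups did not overlap in 23 of them is a description and no support.

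Genes that mark allergic, type 2 airway inflammation were higher in untreated mutants than in untreated wild type, and were among the largest differences of the comparison. Type 2 inflammation is driven by interleukins 4 and 13, whose receptor activates the transcription factor STAT6 in epithelium and macrophages. Epithelium responds with mucus genes, macrophages with chitinase-like proteins, Retnla and arginase, and eosinophils are drawn in by eotaxins. Retnla, resistin-like alpha, a secreted marker of such macrophages and epithelium, read 6122, 2574, 13595 and 11705 in wild type and 25443, 19513, 27066 and 16798 in mutants. All mutants lay above all wild types, and the log2 difference was 1.62 (SE 0.35, limma adjusted p = 0.144). Scin, an actin-severing protein, read 122, 33.5, 139 and 126 in wild type and 250, 329, 384 and 195 in mutants (log2 difference 1.22, adjusted p = 0.144). Wild-type array 2 was the lowest for both genes.

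The promoter of Retnla is shown because this gene leads the type 2 group and a site of the STAT6 type lies in it. The sequence is that of RefSeq for the 250 bases before the start, on the plus strand at chr16:48842359-48842608 (GRCm38.p6), and capitals mark the only match to TTCNNNNGAA, a motif that is its own reverse complement and has the spacing STAT6 recognises.
Retnla: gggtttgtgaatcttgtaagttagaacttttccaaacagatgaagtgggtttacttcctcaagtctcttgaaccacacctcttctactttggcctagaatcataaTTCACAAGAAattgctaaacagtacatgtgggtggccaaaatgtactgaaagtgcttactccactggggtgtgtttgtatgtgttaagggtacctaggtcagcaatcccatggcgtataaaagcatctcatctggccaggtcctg
The match begins 145 bases before the start. The motif occurs in 1923 of 32851 RefSeq promoter windows of this length (5.85%), and in 2 of the 14 windows held for the 21 tested genes of the goblet and chitinase-like lists, those of Retnla and of Ccl17, a chemokine for T cells. A match describes the letters only and says nothing about binding in these lungs.

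The list of chitinase-like and alternatively activated macrophage genes had 5 of 10 tested members higher and 0 lower at an unadjusted p under 0.05, where 5.4% of all genes were higher, and 0 passed adjustment. Its median log2 difference was 0.51, against 0.00 over all genes, and 9 of 10 members had a positive sign. Besides Retnla, the members under that level were the chitinase-like genes Chil4 (1.82) and Chil3 (0.58), the acidic chitinase Chia1 (0.92) and the arginase Arg1 (1.56), at adjusted p of 0.225 to 0.376. The members not under that level were Ccl17 (0.45), Ccl24 (0.21), Chil1 (0.17), Mrc1 (0.03) and Socs2 (-0.15). Arg1 read 37.4, 37.6, 278 and 245 in wild type and 773, 214, 618 and 271 in mutants, so that wild-type arrays 3 and 4 overlapped the mutants and arrays 1 and 2 were far below. Chia1 read 2119, 1979, 2476 and 4985 against 9048, 4050, 5378 and 3460, with a second probe at 1.29. Retnla was the only member whose groups did not overlap. A separate list of alveolar macrophage genes, which also holds Chil3 and Mrc1, had a median of -0.03, with 4 of 8 tested members positive and 4 negative.

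Of goblet cell and mucous genes, 4 of 11 tested members were higher and 0 lower at an unadjusted p under 0.05. Over all genes 5.4% were higher at that level. The median log2 difference of the list was 0.50, with 9 members positive and 2 negative, Pigr (-0.32) and Tff2 (-0.18). Clca1, a secreted protein of mucous cells, read 3709, 371, 4873 and 3299 in wild type and 8178, 8153, 13142 and 4411 in mutants. Mutant array 4 lay within the wild-type range and wild-type array 2 far below it, and the log2 difference was 1.82 (SE 0.56, limma adjusted p = 0.225). Ern2, a sensor of endoplasmic reticulum stress in mucous cells, read 138, 76.7, 92.1 and 134 against 191, 219, 245 and 154, without overlap (0.69, adjusted p = 0.225). The airway secretory protein gene Bpifb1 gave 0.50 (adjusted p = 0.265) and the ion pump regulator Fxyd4 gave 0.82 (adjusted p = 0.402). Muc5ac, the gel-forming mucin of goblet cells, had mean intensities of 61.5 and 121 (0.68, adjusted p = 0.57).

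Both lists were lowest on wild-type array 2 and highest on mutant array 3. The mean log2 score of goblet genes, relative to the wild-type mean, was 0.28, -0.65, 0.26 and 0.11 on the wild-type arrays and 0.66, 0.40, 0.93 and 0.02 on the mutant arrays. The chitinase-like score was -0.20, -0.61, 0.34 and 0.47 in wild type and 0.99, 0.55, 1.12 and 0.22 in mutants. On both scores mutant array 4 lay within the wild-type range. Without wild-type array 2 the list medians were 0.28 for goblet and 0.31 for chitinase-like genes, with 3 of 11 and 4 of 10 members higher at an unadjusted p under 0.05. Without mutant array 3 the goblet count was 2 of 11 (median 0.36) and the chitinase-like count 4 of 10 (median 0.45). With array weights the goblet count was 8, and 19.5% of all genes lay under that level in either direction, against 12.2% in the main fit.

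A pair of genes outside the naming rule was singled out after their values were seen. Rnase2a, a ribonuclease associated with eosinophils, had the highest log2 difference of the comparison, at 2.23 (SE 0.55, limma adjusted p = 0.17). It read 120, 52.7, 609 and 861 in wild type and 1813, 986, 2426 and 863 in mutants, and mutant array 4 and wild-type array 4 were almost equal. Ccl11, eotaxin, read 99.0, 86.0, 153 and 189 against 534, 158, 465 and 224 (1.07, SE 0.27, adjusted p = 0.171), with a second probe at 0.54. Mutant array 2 lay between the wild-type arrays for Ccl11. The list of mast cell, basophil and eosinophil genes was not higher with them. Of its 5 tested members 0 had an unadjusted p under 0.05 and all 5 were negative, with a median of -0.07. The eosinophil granule gene among them, Prg2, gave -0.45, while Epx, eosinophil peroxidase, and Siglecf were too dim to be tested.

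**Figure D2:**
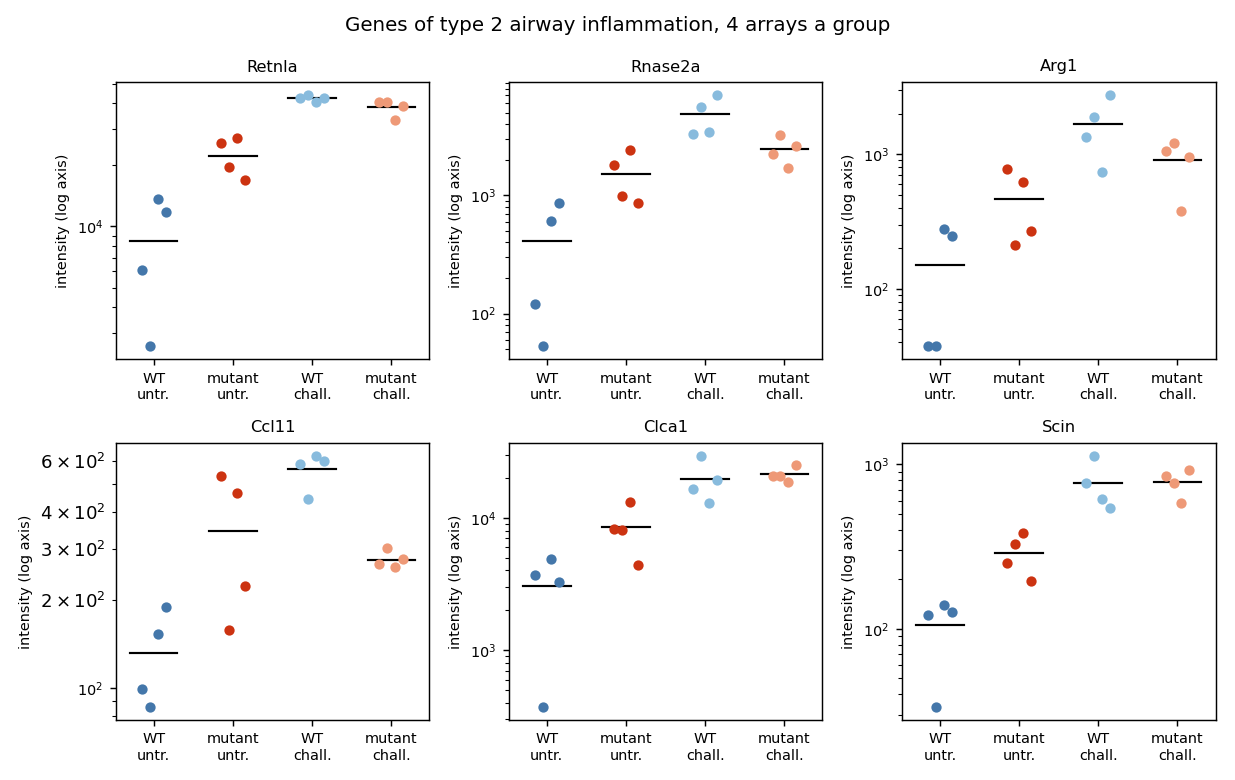
Linear intensity on a log axis of Retnla, Rnase2a, Arg1, Ccl11, Clca1 and Scin, 1 point per array and a line at the group mean, n = 4 per group. The untreated mutants lie above the untreated wild-type mean in all 6 genes, with wild-type array 2 the lowest array of each but Arg1, and the means of both challenged groups lie above the untreated mutant mean for all but Ccl11, where challenged mutants (259 to 301) lie below it.

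Neutrophil and immediate early genes had negative list medians in mutants, and both lists scored highest on wild-type array 1. Of neutrophil and monocyte genes, 4 of 10 tested were lower at an unadjusted p under 0.05, where 6.75% of all genes were lower, with a median log2 difference of -0.35 and 9 of 10 members negative. Csf3r, the receptor of the growth factor G-CSF, read 338, 200, 127 and 129 in wild type and 122, 124, 66.4 and 81.8 in mutants (-0.72, adjusted p = 0.221). S100a9, a subunit of calprotectin, read 7180, 2304, 834 and 1441 in wild type and 1180, 827, 1135 and 869 in mutants (-1.07, adjusted p = 0.342). Its partner S100a8 gave -0.92 and the gelatinase Mmp9 gave -0.68. Wild-type array 1 was the highest of the 8 arrays for each of these, and without it the list median was -0.23 and 1 member was lower at that level. The count of 4 was also 1 without wild-type array 2, without mutant array 4 or with only the 8 untreated arrays fitted, and 2 without mutant array 3 or with a trended, robust variance prior. The median stayed negative in each of these.

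Immediate early genes are transcription factors induced within minutes of a stimulus. Of 15 tested members 4 were lower and 0 higher at an unadjusted p under 0.05, where 6.75% of all genes were lower. The list median was -0.33. Fosb read 397, 155, 25.7 and 69.1 in wild type and 43.0, 42.4, 7.29 and 18.2 in mutants (log2 difference -1.25, limma adjusted p = 0.241). Egr1 read 4550, 3153, 1520 and 1465 against 1592, 1206, 1439 and 1192 (-0.80, adjusted p = 0.258), and the groups overlapped for both genes. Nr4a2 gave -0.39 and Egr3 -0.20. The score of this list was 0.41 on wild-type array 1 and 0.12 on array 2, and lay between -0.27 and -0.22 on wild-type arrays 3 and 4 and mutant array 1 and between -0.43 and -0.32 on the other mutants. Without wild-type array 1 the median was -0.20, with 5 members lower at that level. The count was 2 without wild-type array 2 or without mutant array 2, at medians of -0.30 and -0.28, 6 without wild-type array 3 and 8 with array weights. In those last 2 settings 16.2% and 19.5% of all genes lay under that level in either direction, against 12.2% in the main fit. Handling and time of collection are not given in the labels, and their part in these genes was not tested.

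Genes of the respiratory chain, the pathway of the targeted gene, had list medians near 0. The list of cytochrome c oxidase subunits held 15 tested genes and left out Cox4i2, whose lower values are given above. Of these 15, Cox7a2l was higher at an unadjusted p under 0.05 (log2 difference 0.24) and 0 were lower, with a median of 0.04. Cox4i1, the common isoform of subunit IV, read 6359, 5660, 5549 and 5880 in wild type and 5487, 5436, 5863 and 4848 in mutants, so that mutant array 3 lay within the wild-type range and the other 3 mutants below it (-0.12, SE 0.08, adjusted p = 0.6). Of 18 tested assembly factors of this complex, 0 had an unadjusted p under 0.05.

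Complex I had 33 tested subunits, of which 3 were higher (Ndufb6 0.34, Ndufc1 0.30, Ndufb5 0.27) and 1 lower (Ndufb10 -0.29), with a median of -0.02. A second, dim probe of Ndufb6 gave -0.51. Complexes II and III with cytochrome c had 1 of 11 higher, the cytochrome c gene Cycs (0.22), and ATP synthase had 2 of 14 higher (Atp5o 0.31, Atp5j 0.23). In carnitine transport and fatty acid oxidation, 3 of 20 were higher, the beta-oxidation enzymes Acadl (0.50), Acaa2 (0.42) and Decr1 (0.31), and 2 were lower, Slc22a5 and the short-chain dehydrogenase Acads (-0.23), and the list median was -0.01. Other detected probes gave -0.15 for Acadl and 0.31, 0.30 and -0.23 for Acaa2. With the mean of all detected probes of a gene, or without mutant array 4, the list had 1 higher and 1 lower. Of the TCA cycle only Dlst was lower (-0.31), among 14 tested. All these counts are at an unadjusted p under 0.05, none passed adjustment, and 12.2% of all genes lay under that level.

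Hypoxia response genes had 1 of 15 lower, the stress gene Ndrg1 (-0.47), and a median of -0.01. Glycolysis genes had the phosphofructokinase Pfkp higher (0.34) and the pyruvate kinase Pkm (-0.24) and the hexokinase Hk2 (-0.47) lower, of 11 tested. Of 18 antioxidant genes and targets of the factor NRF2, the gene of NRF2 itself, Nfe2l2, was higher (0.40), and mitochondrial superoxide dismutase Sod2 (-0.35), the glutathione peroxidase Gpx3 (-0.35) and sulfiredoxin Srxn1 (-0.24) were lower, with a list median of 0.00. Srxn1 also lies within 5 Mb of Cox4i2. The genes counted in these 3 lists are again those at an unadjusted p under 0.05. None passed adjustment, and 12.2% of all genes lay under that level.

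Among vessel cells, pericytes are a site of Cox4i2 expression, and their list holds the targeted gene. Beside Cox4i2, 2 of the other 9 tested members were lower at an unadjusted p under 0.05, the growth factor receptor Pdgfrb and the potassium channel Kcnj8, where 6.75% of all genes were lower, and the list median was -0.18. Cox4i2 included, the count of 3 ranged over the alternatives from 2 without mutant array 4 to 5 without mutant array 2. Pdgfrb read 355, 391, 296 and 293 in wild type and 228, 293, 192 and 259 in mutants, and mutant array 2 and wild-type array 4 were nearly equal (-0.41, SE 0.11, limma adjusted p = 0.203). Kcnj8 was dim, at 34.8, 42.5, 29.4 and 22.2 against 28.8, 22.4, 9.40 and 1.73 (-0.39, adjusted p = 0.27), and 2 of the 4 mutant arrays were below the background limit. Smooth muscle genes had 0 of 13 with an unadjusted p under 0.05, lymphatic endothelial genes 0 of 7, and blood endothelial genes 1 of 14, the carbonic anhydrase Car4 (0.31). In the netrin and axon guidance list, besides Unc5b, the venous ephrin receptor Ephb4 was lower (-0.47), of 20 tested, and the median was -0.02. In challenged lungs the pericyte list had a median of 0.07, with Pdgfrb at 0.24 and Kcnj8 at -0.16.

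The lists of alveolar, club and ciliated cells had 0 members higher and 1 or 2 each lower at an unadjusted p under 0.05. Of all genes, 6.75% were lower at that level. Alveolar type 2 genes had 2 of 12 lower, the transcription factor Etv5 (-0.47) and the surfactant lipid enzyme Lpcat1 (-0.45), and alveolar type 1 genes 2 of 8, Gprc5a (-0.30) and the water channel Aqp5 (-0.31). Club cell genes had 2 of 10 lower, Hp (-0.31) and Cbr2 (-0.38), with a median of -0.21, and ciliated cell genes 1 of 11, Tubb4b (-0.33). The club cell score lay at -0.36 on wild-type array 3 and from 0.03 to 0.21 on the other wild-type arrays, against -0.32 to 0.02 in mutants. Cardiac muscle genes, which in mouse lung come from the sleeves of the pulmonary veins, had a median of -0.31 with 13 of 14 members negative and 0 with an unadjusted p under 0.05. Their score was -0.46 on wild-type array 3 and 0.01 to 0.27 on the others, against -0.63 to -0.01 in mutants.

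Cell cycle genes were all positive in sign (13 of 13), with a median of 0.20 and 0 with an unadjusted p under 0.05. Interferon response genes had 3 of 14 higher, the transcription factor genes Stat2 (0.37) and Irf9 (0.35) and the antiviral gene Oas2 (0.49), where 5.4% of all genes were higher, with a median of 0.07. Without wild-type array 1 the interferon count was 1 and the median -0.03. Circadian clock genes had 2 of 15 lower at an unadjusted p under 0.05, Cry2 (-0.76) and Tef (-0.63), where 6.75% of all genes were lower. Glucocorticoid-responsive genes had 0 of 15 at that level. T and NK cell, plasma cell, red blood cell, skeletal muscle and fat cell genes had 0 members with an unadjusted p under 0.05, and the skeletal muscle actin gene Acta1 lay at background in both groups (means -6.49 and -4.89). Of 42 lists with at least 3 tested members, 5 had a median beyond 0.3 in size, and all 5 have been named above, the chitinase-like, goblet, neutrophil, immediate early and cardiac muscle lists.

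**Figure D3:**
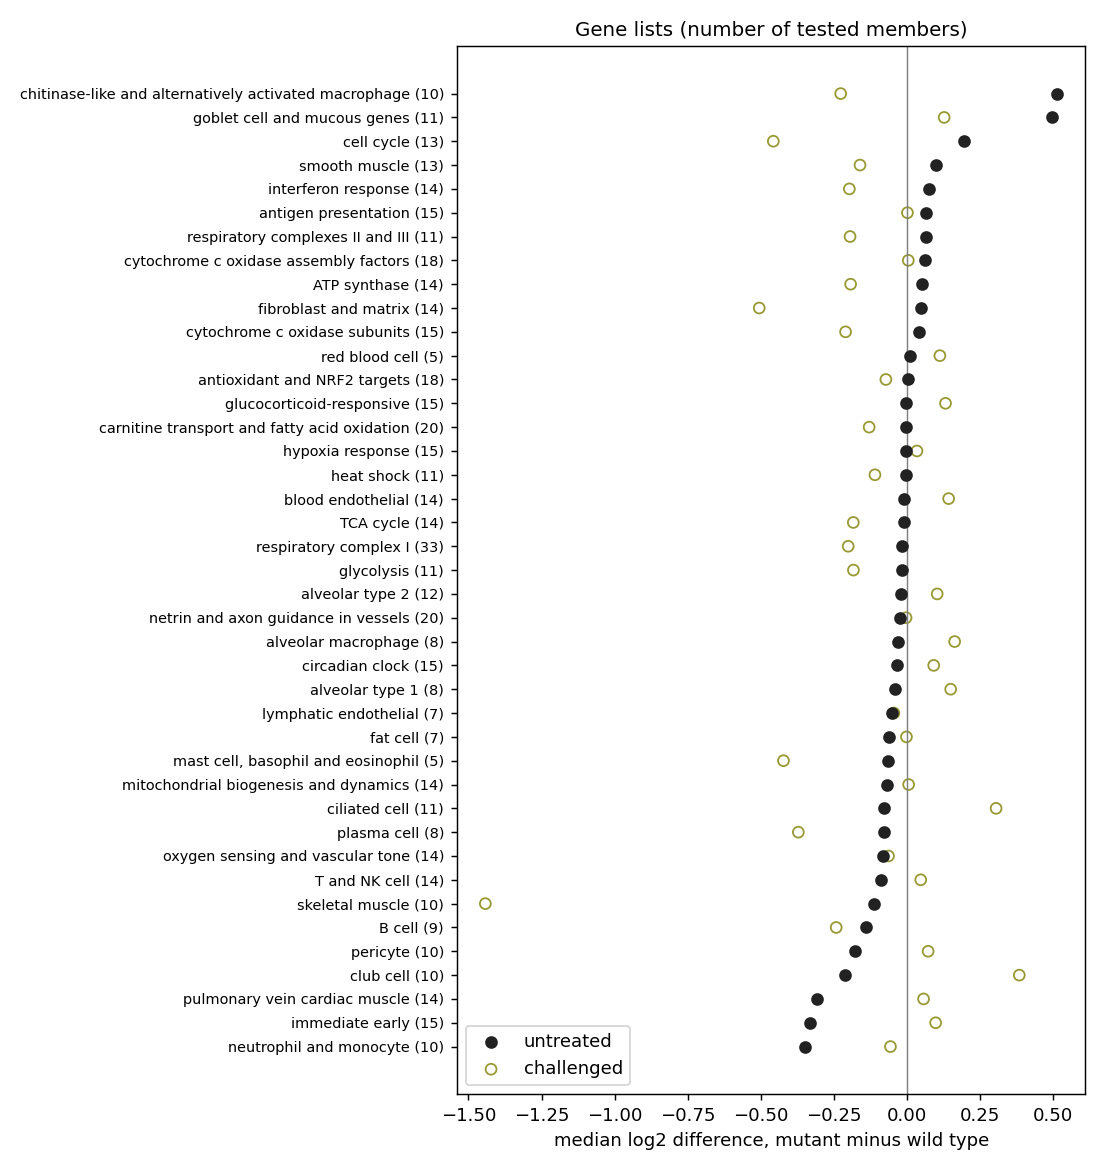
Median log2 difference (mutant minus wild type) of each gene list with at least 5 tested members, in untreated (filled) and challenged lungs (open), with the number of tested members in brackets. In untreated lungs the chitinase-like (0.51) and goblet lists (0.50) lie highest and the neutrophil list (-0.35) lowest. The challenged values come from other arrays, and the skeletal muscle value there (-1.44) is drawn from arrays that differ in muscle RNA.

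The challenged arrays allow the same genotype comparison in animals that the untreated one did not use. There 2 of 11962 features passed the threshold (0.0167%), the Rem1 probe and Gamt, and 1465 had an unadjusted p under 0.05 (12.2%), 782 higher (6.54%) and 683 lower (5.71%). Groups did not overlap in 784 features (6.55%). Of those 8 arrays, 3 carried skeletal muscle, squamous and fat RNA beside lung RNA, wild-type challenged arrays 1 and 3 and mutant challenged array 2. Without these 3 arrays 86 genes passed in challenged lungs and 0 in untreated ones. The challenged wild-type group then held fewer arrays than the challenged mutant group.

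The Rem1 probe was lower under both treatments. In challenged lungs the log2 difference was -1.44 (limma adjusted p = 0.00302), against -0.65 in untreated ones. Zcchc3 gave -1.39 in challenged lungs (adjusted p = 0.14), next to -1.11 untreated, and Cox4i2 gave -0.68 (adjusted p = 0.265). All 3 lie within 0.342 Mb on chromosome 2. Gamt, an enzyme of creatine synthesis on chromosome 10, fell in challenged mutants (log2 difference -0.53, adjusted p = 0.0475), a call that was lost on leaving any 1 untreated array out of the fit. In untreated lungs it read 65.6, 66.8, 61.8 and 58.2 in wild type and 49.6, 48.8, 38.5 and 39.0 in mutants, without overlap (-0.30, adjusted p = 0.203).

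Of the leading genes, Unc5b and the Pgd probe were lower in challenged lungs too. Unc5b gave -0.43 there (adjusted p = 0.199, exact permutation p = 0.0286, no overlap), and the difference between the treatments had an unadjusted interaction p of 0.258. The Pgd probe gave -0.39 in challenged lungs (adjusted p = 0.14), close to -0.43 untreated. Slc22a5 gave -0.10 in challenged lungs (adjusted p = 0.72), and the interaction had an unadjusted p of 0.00142 and an adjusted p of 0.18. The leading genes have the smallest untreated p, and the untreated difference enters the interaction. Small interaction p in them are therefore a description and no support. Of the 24 leading genes 20 had an unadjusted interaction p under 0.05, against 1434 of all 11962. In all, 13 of the 24 leading genes kept their sign in challenged lungs, 8 of the 12 lower and 5 of the 12 higher ones, and 6060 of all 11962 genes did.

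After challenge the type 2 genes that were higher in untreated mutants had smaller or negative differences. They were named with large untreated differences known, and genes chosen so can give smaller differences on other arrays for that reason alone. Their challenged values are therefore a description and no support. Scin gave a log2 difference of 0.06 in challenged lungs, Clca1 0.18, Ern2 0.09 and Chil3 0.09, while Retnla gave -0.15, Arg1 -0.84 and Rnase2a -0.93, and the medians of the chitinase-like and goblet lists were -0.23 and 0.13. Ccl11 read 585, 445, 625 and 599 in challenged wild type and 265, 301, 259 and 276 in challenged mutants, the reverse order of the untreated lungs (-0.93, adjusted p = 0.19). Its interaction had an unadjusted p of 6.45e-05 and an adjusted p of 0.153. Hspa1a was likewise higher in untreated mutants and gave -0.40 after challenge (interaction adjusted p = 0.153), as did Mad2l1 at -0.33 (interaction adjusted p = 0.153). Ccl11, Hspa1a and Mad2l1 were named with their untreated differences known, and these enter the interaction. Their interaction p are therefore a description and no support. For the interaction 0 features passed (0%), with 1434 at an unadjusted p under 0.05 (12%), so no difference between the treatments passed adjustment over all genes.

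Across all 11962 genes the genotype differences in untreated and in challenged lungs had a Pearson correlation of 0.03 and a Spearman correlation of 0.01, given as a description over genes, which are not independent replicates. Of the 491 genes apart and lower in untreated mutants, 26 were apart and lower in challenged mutants (5.3%, and 7.85% of the 331 there) and 13 apart and higher. Of the 356 apart and higher, 11 were apart and higher in challenged lungs (3.09%, and 2.43% of the 453 there) and 11 apart and lower. The shares of all genes apart in challenged lungs were 2.77% lower and 3.79% higher.

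**Figure D4:**
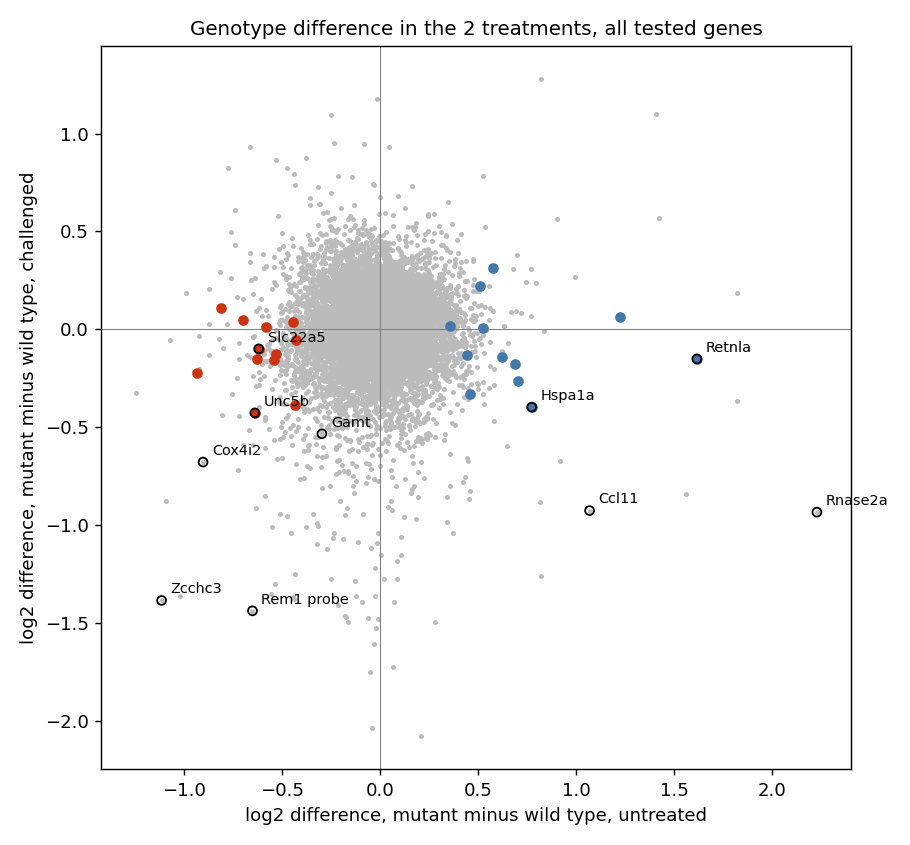
Log2 genotype difference (mutant minus wild type) of all 11962 tested genes in untreated (x axis) and challenged lungs (y axis). Red and blue points are the 12 leading genes in each direction by p in untreated lungs, and circles mark named genes. Cox4i2, Zcchc3, the Rem1 probe, Unc5b and Gamt lie in the lower left, below 0 on both axes, while Retnla, Rnase2a, Ccl11 and Hspa1a lie right of 0 and below 0.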

How the data were processed

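The members and gene lists were chosen with earlier results of these data known. The authors' deposited table holds linear intensities of 25697 probes on 16 arrays, background subtracted and quantile normalised, as read from the values. The submitters' processing notes name GenomeStudio 2011.1 without its role. The deposited detection p-values stand in a table whose 32 value columns match no sample label. They were not used, so a background limit replaced the planned filter on detection p, and only the symbols of 2 unnamed probes were taken from that table.

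From the deposited intensities, log2 values were taken after limma's normexp model with offset 16. This adds 40.7 to 40.9 to bright values, so differences of dim probes are understated. A probe was kept when above 16.8 (percentile 95 of the noise, SD 10.2, seen in values below 0) on at least 4 of 16 arrays, which 15869 probes were. The detected probe with the highest mean stood for its gene, leaving 11962 features, 11014 with a symbol. In 2837 genes several probes were detected. The platform annotation gave 1 symbol to 23978 probes, several to 0 and none to 1719.

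Linear models of the 16 arrays, with a coefficient for each group, were fitted with limma (version 3.58.1, R version 4.3.3) and moderated by eBayes (12 residual, 4.75 prior degrees of freedom). P-values were 2-sided and adjusted by Benjamini-Hochberg over the 11962 features at a threshold of 0.05. The fit was tested on simulated data. Exact permutation tests of single genes were 2-sided. The number of arrays, each from a separate mouse, limits the precision. Slides and scan dates are not known, and no batch could be tested. An "at least" fold divides the mean of the bright group by the limit, not by the dim signal, on the scale of the fit.

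Named were Cox4i2, Slc22a5, Unc5b, the 12 genes of smallest p in each direction, for every described list (of 43) at most 4 members with the smallest p, at most 4 neighbours of Cox4i2, the calls in challenged lungs, and genes said to be singled out. Muc5ac, Pigr, Tff2, Chil3, Mrc1, Chil1, Ccl24, Ccl17, Socs2, Prg2, Cox4i1 and the lung and muscle markers were added after their values were seen. Replicate numbers were not used as pairs in the main fit. Deviations of same-numbered mutant and wild-type arrays correlated at 0.04, 0.25, 0.23 and -0.03, which does not settle whether the numbers pair the arrays. Alternatives covered the arrays fitted, offset, floor, filter, choice of probe, array weights, variance prior, replicate block, scaling and leaving out each array.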

Additional observations from a re-analysis of the deposited data

Results flagged for a closer look

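For 41 genes, each untreated group of 4 was checked for 1 array far from the other 3 (Dixon's test at its 95% limit). Of 82 such groups 7 stood out, and chance gives about 1 in 20. In wild type, array 2 was low for Scin, at 33.5 against 122 to 139, and for Clca1, at 371 against 3299 to 4873. Wild-type array 3 was high for Mad2l1, at 189 against 124 to 131, and low for Rapgef1, at 446 against 624 to 657, which in both genes puts it nearer to the mutants. Wild-type array 4 was high for Cox4i2, at 372 against 247 to 260. In mutants, array 3 was low for Unc5b, at 31.4 against 63.8 to 65.6, and high for Tmem87a, a transmembrane gene on chromosome 2, at 666 against 395 to 427. Tmem87a read 61.2, 99.9, 386 and 168 in wild type, with a log2 difference of 1.41 (limma adjusted p = 0.273), and was singled out after its values were seen.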

How the results depend on the processing

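The count of genes past the threshold in untreated lungs was 0 with only the 8 untreated arrays, without the 3 challenged arrays with other tissue, without the filter, with the stricter filter, with a replicate block and with equal medians. It was 1 with offset 50 (Slc22a5), 1 with a floor in place of the background model (an unnamed probe), 1 with the mean of all probes (Zdhhc3), 1 with a trended, robust variance prior (Slc22a5), 3 with every probe tested separately (Slc22a5 among them) and 130 with array weights, which gave wild-type array 3 a weight of 0.55 and array 2 one of 2.24. Leaving out each untreated array in turn gave 0 to 36, with 36 without wild-type array 3, 2 without mutant array 2 (Mvb12b and Slc22a5) and 0 otherwise. The share of genes at an unadjusted p under 0.05 ran from 8.91% to 19.5%. The 2 calls in challenged lungs became 86 without the 3 arrays with other tissue, 5 with offset 50, 4 with the stricter filter, the mean of probes, the variance prior or equal medians, and 1 with the floor, without the filter, with every probe, with array weights, with the replicate block, or without any 1 untreated array (range 1 to 1). For the interaction, 0 became 34 without the 3 arrays, and 0 to 3 on leaving out an untreated array. The log2 difference of Cox4i2 lay between -1.12 and -0.72 over the 20 alternatives, and its adjusted p between 0.0602 and 0.357. Among 78 named genes, the sign of 1 was reversed, Ndufb6 at -0.0839 with the mean of its detected probes. The replicate block, with numbers not known to pair the arrays, left the untreated count at 0 (smallest adjusted p 0.0803). In their deviations, wild-type arrays 1 to 4 correlated best with mutant arrays 2, 2, 3 and 3. The causes of these shifts were not tested. Of the named dim genes, Noxa1 was above background on 0 mutant arrays and has only a bound, and Kcnj8 and Ninl were above it on 2 and 1 of 4, so their differences rest partly on noise.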
